A study of Mus musculus with 90 samples.

Results

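Mouse livers in which Epac2 had been knocked down were compared with livers in which the glucagon receptor, Gcgr, had been knocked down. The members were chosen by their labels alone: 10 libraries labelled Epac2 KD and 10 labelled Gcgr KD, which make up 20 of the 90 samples of the series. Both belong to experiment 1, which holds 50 samples in 5 groups of 10, and the 10 Control samples of that experiment are used to place each group. The series as a whole has 9 groups and concerns the liver's signalling downstream of the glucagon receptor, and this comparison sets loss of the receptor against loss of a single cAMP effector below it.

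Per the series' design text, mice were injected with AAV8, a virus that in liver mainly transduces hepatocytes, carrying a short hairpin RNA (shRNA). It was directed at Gcgr in the Gcgr KD group and at Epac2 in the Epac2 KD group. The label of the third group says only Control, and what those mice received is not given in the sources used here. Neither are the hairpin sequences, the vector dose, the time after injection, or the strain, sex and age of the mice. No label says that samples of a group were separate mice, so p-values measure only the spread between these samples. RNA was taken from liver tissue, in which fewer cells of a type and less RNA per cell cannot be told apart.

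Glucagon binds its receptor on hepatocytes and, through the stimulatory G protein encoded by Gnas, raises cyclic AMP. Cyclic AMP acts on protein kinase A (PKA), which phosphorylates the transcription factor CREB, and on the exchange factors Epac1 (gene Rapgef3) and Epac2 (gene Rapgef4), which load the small GTPase Rap1 with GTP. In liver, glucagon is known for raising gluconeogenesis, amino acid breakdown, urea synthesis and fat oxidation.

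Levels are given in CPM, counts scaled to a common library size, as lowest, median and highest of 10 libraries. Differences are log2 fold changes of Epac2 KD minus Gcgr KD ± SE, so that a positive value means a higher level in Epac2 KD, and "called" means that the quasi-likelihood test of edgeR over 13574 genes gave an adjusted p under 0.05. Totals per library were 22.1 to 29.2 M counts in Gcgr KD, 20.8 to 27.7 M in Epac2 KD and 22 to 28.4 M in Control. A few libraries stood apart: Gcgr KD libraries 3 and 5 had the highest interferon levels and the lowest cell cycle levels of their group, Epac2 KD library 5 had 24.9% of its counts from the mitochondrial genome, Epac2 KD library 7 had the highest acute phase level, and Epac2 KD library 2 had the highest Tat and Gls2 and the lowest Glul. The comparison was repeated without each of these Epac2 KD libraries, and without Gcgr KD libraries 3 and 5 together.

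The 2 targeted transcripts had opposite patterns. Gcgr, gene 14527 of Entrez, lies on chromosome 11 (GRCm38.p6, 120529185 to 120538989). It stood at 38.3, 44.9 and 54.1 CPM in Gcgr KD, at 122, 169 and 205 CPM in Epac2 KD and at 146, 172 and 218 CPM in Control. Every Epac2 KD library lay above every Gcgr KD library, and the level was 3.65-fold higher in Epac2 KD (1.87 ± 0.10, adjusted p = 2.7e-20). Rapgef4 encodes Epac2 and is gene 56508, on chromosome 2 (71981215 to 72257474). It stood at 75.5, 83.7 and 146 CPM in Gcgr KD, at 5.19, 8.82 and 14.5 CPM in Epac2 KD and at 68.7, 89.0 and 122 CPM in Control. Here every Epac2 KD library lay below every Gcgr KD library, and the level was 10.1-fold lower (-3.33 ± 0.18, adjusted p = 2.7e-20). Each knockdown left the other target within the range of the Control libraries or near it.

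**Figure D1:**
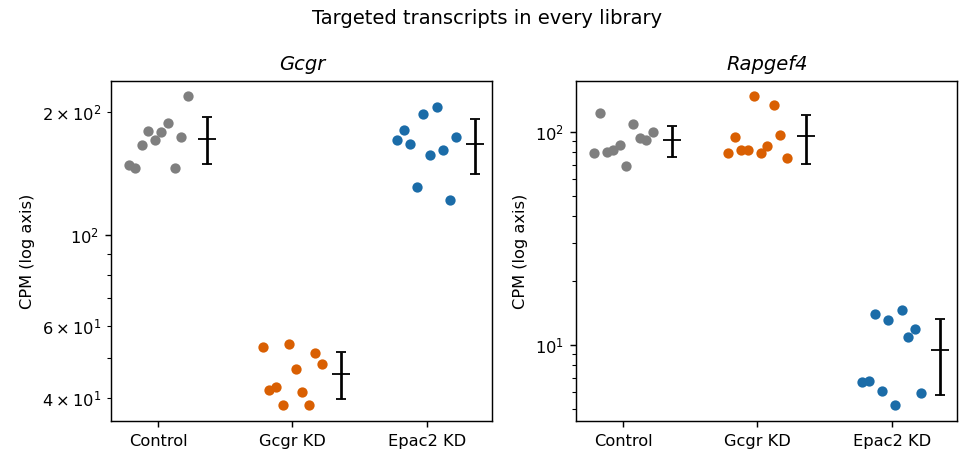
CPM (log axis) of Gcgr and Rapgef4 in each of the 10 libraries of Control, Gcgr KD and Epac2 KD, with the mean and SD of each group as a black bar. Gcgr lay between 38.3 and 54.1 CPM in Gcgr KD alone, and Rapgef4 between 5.19 and 14.5 CPM in Epac2 KD alone.

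Across all genes, 2820 were called, or 20.8% of those tested: 1501 were higher in Epac2 KD (11.1%) and 1319 were lower (9.72%). Most differences were small. The median absolute log2 change was 0.36 among called genes and 0.16 among all tested genes, and 213 called genes differed at least 2-fold, 57 of them higher and 156 lower in Epac2 KD. The 10 libraries of each group did not overlap at all for 217 called genes, 108 higher and 109 lower. Set against Control, from which the same libraries were compared, 981 genes (7.23%) were called with Gcgr KD, 393 higher and 588 lower, and 619 (4.56%) with Epac2 KD, 247 higher and 372 lower. These comparisons share libraries with the direct one, and are given only to place each group.

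Most genes induced by interferon were lower in Epac2 KD than in Gcgr KD. Interferons are secreted signals that switch on antiviral genes, many of which share a short element in their promoters. Of 51 tested interferon genes, 43 were lower in Epac2 KD and 0 were higher, against 9.72% and 11.1% of all tested genes, and the list's median change was -0.87, against -0.0021 over all tested genes. The promoters of 3 of the genes with the largest falls are shown, because they carry that element. They come from RefSeq's promoter table (build GRCm38.p6), run from 250 bases before to 50 after a transcript start, 5′ to 3′ on the gene's strand, and capitals mark matches to GAAANNGAA, searched on both strands with overlapping matches kept. Rsad2 is at chr12:26456403-26456702 (minus strand), Ifit1 at chr19:34640639-34640938 (plus strand) and Ifit3b at chr19:34607707-34608006 (plus strand). The window of Ifit3b lies on a start inside the annotated gene, which begins at 34607530.
Rsad2: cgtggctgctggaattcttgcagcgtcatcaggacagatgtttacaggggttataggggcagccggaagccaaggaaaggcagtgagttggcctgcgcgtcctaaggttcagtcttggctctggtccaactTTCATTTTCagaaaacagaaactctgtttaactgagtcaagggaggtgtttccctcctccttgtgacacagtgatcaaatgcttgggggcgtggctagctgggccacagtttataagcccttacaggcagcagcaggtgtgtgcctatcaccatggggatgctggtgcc
Ifit1: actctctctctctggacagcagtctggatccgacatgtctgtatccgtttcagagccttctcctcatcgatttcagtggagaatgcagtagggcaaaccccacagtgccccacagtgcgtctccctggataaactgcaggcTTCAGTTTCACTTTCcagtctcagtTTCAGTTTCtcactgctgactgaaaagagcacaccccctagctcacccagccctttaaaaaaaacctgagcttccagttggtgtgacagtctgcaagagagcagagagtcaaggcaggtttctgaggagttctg
Ifit3b: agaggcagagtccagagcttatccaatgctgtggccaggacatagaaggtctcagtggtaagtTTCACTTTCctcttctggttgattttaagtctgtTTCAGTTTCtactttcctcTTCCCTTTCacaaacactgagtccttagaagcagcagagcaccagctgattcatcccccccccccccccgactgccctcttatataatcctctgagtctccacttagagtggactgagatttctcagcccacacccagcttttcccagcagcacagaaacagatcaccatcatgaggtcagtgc
Of the 43 interferon genes lower in Epac2 KD, 30 had a promoter in that table, and 20 of these (66.7%) held the element, as did 3 of the 6 promoters (50%) of members that were not called. It was found in 9.76% of all 27025 promoters of the table and in 8.79% of the 10781 that belong to tested genes. A match is a description of the letters and not of a bound site.

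Rsad2, which encodes the antiviral enzyme viperin, stood at 17.9, 40.0 and 101 CPM in Gcgr KD, at 6.17, 10.1 and 15.1 CPM in Epac2 KD and at 12.4, 17.5 and 25.4 CPM in Control. The knockdown groups did not overlap, with a 4.88-fold lower level in Epac2 KD (-2.29 ± 0.22, adjusted p = 7.37e-11). Ifit1, whose protein binds RNA that lacks the host's cap methylation, stood at 9.85, 22.6 and 73.6 CPM in Gcgr KD and at 4.53, 5.84 and 9.02 CPM in Epac2 KD (-2.19 ± 0.28, adjusted p = 1.07e-07). The groups were again apart, and the Control libraries, at 7.28 to 17.9 CPM, reached into both. Ifi44 was at 4.76, 6.90 and 20.9 CPM against 1.08, 2.36 and 4.21 CPM (-1.80 ± 0.26, adjusted p = 6.66e-07), with no overlap. Ifit3b, whose sequence is so close to Ifit3 that reads could be split between them, was at 5.93, 10.3 and 29.0 CPM against 2.46, 3.14 and 4.62 CPM (-1.78 ± 0.24, adjusted p = 1.15e-07), also with no overlap. Cmpk2, a mitochondrial nucleotide kinase next to Rsad2, was at 8.24, 18.3 and 43.9 CPM against 4.66, 6.36 and 8.46 CPM (-1.72 ± 0.19, adjusted p = 2.02e-09), and its groups overlapped slightly.

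The difference reached the sensors and regulators of the response as well as its effectors. Among regulators, Irf7 changed by -1.10 and Irf9 by -0.50, and among effectors Mx1 by -1.57 and Isg15 by -1.44; all of these were called. The receptor of foreign RNA Ifih1 was at -0.63 and the chemokine Cxcl10 at -1.17, both called. The 8 members not called included Irf1 at 0.05, H2-K1 at 0.04, Nlrc5 at -0.13 and Tap1 at -0.21, genes of antigen presentation or its control. Reads of the Oas and Gbp families, whose members are alike, could be split between copies.

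Both groups had moved away from Control, in opposite directions. With Gcgr KD, 19 of the 51 genes were called higher than Control and 0 lower (list median 0.37, against 0.0128 over all tested genes); with Epac2 KD, 0 were called higher and 18 lower (list median -0.43, against 0.0153). Over all 13574 tested genes, 393 were called higher and 588 lower with Gcgr KD, and 247 higher and 372 lower with Epac2 KD. For Rsad2 the changes from Control were 1.41 (adjusted p = 8.95e-06) with Gcgr KD and -0.87 (adjusted p = 0.0109) with Epac2 KD. For Ifit3b they were 1.33 (adjusted p = 8.46e-05) and -0.46 (adjusted p = 0.33), so that the second did not pass.

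The mean log2 level of the list in each library, relative to the Control mean, ran from 0.05 to 1.10 in Gcgr KD and from -0.66 to -0.11 in Epac2 KD, with Control between -0.34 and 0.24. The highest were Gcgr KD libraries 5 (1.10) and 3 (0.79), and the next Gcgr KD library was at 0.46. Without both of them, 38 members were called lower. Markers of cell types that respond to or produce interferon were measured beside this. Of 9 dendritic cell markers 0 were called, with summed levels of 57.6 to 115 CPM in Gcgr KD and 52.3 to 79.0 CPM in Epac2 KD; of 14 Kupffer cell and macrophage markers 0 were called (252 to 918 against 198 to 629 CPM); and of 11 T and NK cell markers 0 were called (4.59 to 20.7 against 4.41 to 21.3 CPM). The list medians were -0.26, -0.17 and -0.14, in that order, with 8 of 9, 10 of 14 and 6 of 11 members below 0. None of these markers was at 0 in every library of a group. Their part in the interferon difference was not tested.

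**Figure D2:**
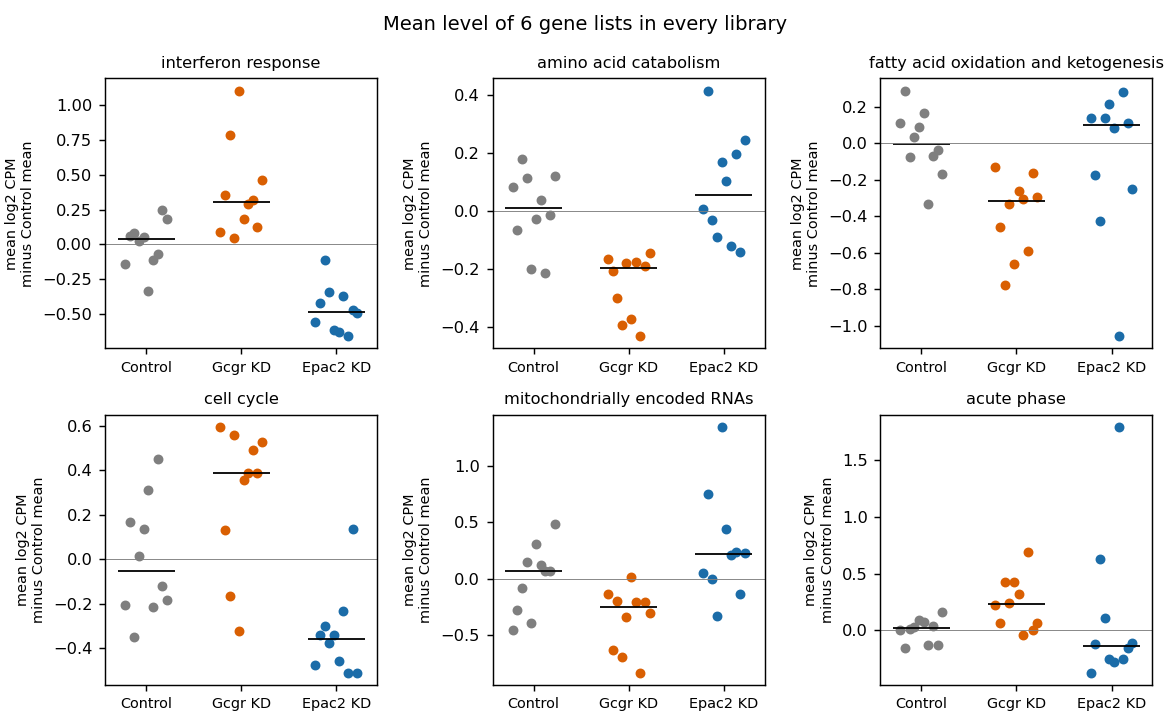
Mean log2 CPM of the tested members of 6 gene lists in each library, minus the mean of the 10 Control libraries; points are libraries and black lines are group medians. The interferon list runs from 0.05 to 1.10 in Gcgr KD and from -0.66 to -0.11 in Epac2 KD, and Epac2 KD library 7 stands apart at 1.79 for the acute phase list and at -1.05 for fatty acid oxidation.

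Many genes of amino acid breakdown were higher in Epac2 KD. Of 61 tested, 37 were called higher and 2 lower, against 11.1% and 9.72% of all tested genes, and the list's median was 0.32. Relative to Control the list had a median of -0.23 with Gcgr KD, where 0 members were called higher and 21 lower, and of 0.06 with Epac2 KD, where 3 were called higher and 1 lower. Against Control, 7.23% of all tested genes were called in either direction with Gcgr KD and 4.56% with Epac2 KD. The mean level of the list ran from -0.43 to -0.15 in Gcgr KD libraries and from -0.14 to 0.41 in Epac2 KD libraries.

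Oat, the mitochondrial aminotransferase that breaks down ornithine, had the largest rise in the list. It stood at 228, 405 and 511 CPM in Gcgr KD, at 787, 1050 and 2260 CPM in Epac2 KD and at 602, 851 and 1230 CPM in Control. The Gcgr KD libraries lay below all others (1.68 ± 0.20, adjusted p = 7.13e-09). Got1, the cytosolic aspartate aminotransferase, was at 52.7, 96.1 and 172 CPM in Gcgr KD and 137, 213 and 384 CPM in Epac2 KD, with overlapping ranges (1.18 ± 0.24, adjusted p = 0.000219). Gnmt, which disposes of excess methionine by methylating glycine, was at 562, 811 and 920 CPM against 1040, 1430 and 2210 CPM, with no overlap (0.89 ± 0.13, adjusted p = 6.17e-07). Cbs, the first enzyme of transsulfuration, was at 253, 344 and 423 CPM against 378, 617 and 988 CPM (0.85 ± 0.12, adjusted p = 2.34e-07), with slight overlap.

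Tat, the tyrosine aminotransferase, was at 324, 518 and 706 CPM against 600, 850 and 2320 CPM (0.89 ± 0.21, adjusted p = 0.00147), and Gls2, the liver glutaminase, at 105, 157 and 223 CPM against 194, 236 and 512 CPM (0.82 ± 0.21, adjusted p = 0.00383). The highest Epac2 KD value of both genes belonged to library 2. Sds, the serine dehydratase, was at 30.5, 47.1 and 79.1 CPM against 52.4, 76.4 and 199 CPM (0.81 ± 0.28, adjusted p = 0.0295). With the replicate block its adjusted p was 0.0504; without Epac2 KD library 2 its change was 0.60 (adjusted p = 0.112), without Epac2 KD library 5 it was 0.74 (adjusted p = 0.0613), and without Gcgr KD libraries 3 and 5 it was 0.72 (adjusted p = 0.0785). The rest of the called rises lay between 0.17 and 0.75, and they covered branched-chain (Ivd 0.69, Bckdha 0.48), histidine (Hal 0.75), tyrosine (Hpd 0.47) and lysine (Aass 0.39) breakdown. The 2 members lower in Epac2 KD were the betaine-homocysteine methyltransferases Bhmt (-0.45 ± 0.15, adjusted p = 0.0246) and Bhmt2 (-0.19 ± 0.061, adjusted p = 0.0218), which return homocysteine to methionine. Without Gcgr KD libraries 3 and 5 they were at -0.32 (adjusted p = 0.138) and -0.16 (adjusted p = 0.0791).

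**Figure D3:**
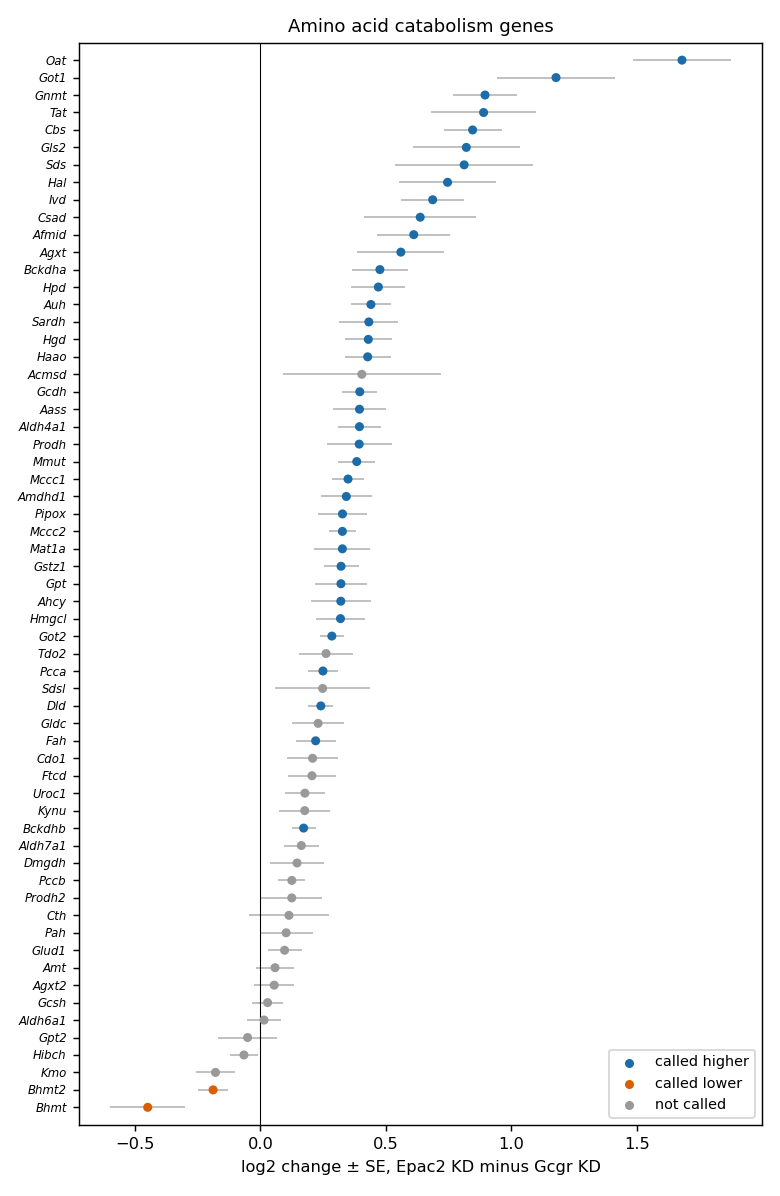
Log2 change ± SE of each of the 61 tested amino acid catabolism genes, Epac2 KD minus Gcgr KD, ordered by size; blue points were called higher in Epac2 KD, orange points lower, and grey points were not called. The 37 blue points range from 0.17 to 1.68 (Oat), and the 2 orange points are Bhmt and Bhmt2.

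In the urea cycle, 2 of 8 tested genes were called, both higher in Epac2 KD, a share (25%) near the 20.8% of all tested genes, and the list median was 0.27. Arg1, the arginase that releases urea, was at 513, 613 and 723 CPM in Gcgr KD, 818, 895 and 1390 CPM in Epac2 KD and 747, 965 and 1070 CPM in Control. The Gcgr KD libraries lay below all others (0.67 ± 0.087, adjusted p = 6.33e-08). Ass1, the argininosuccinate synthase, was at 1540, 2410 and 3080 CPM against 2400, 3500 and 5750 CPM (0.67 ± 0.19, adjusted p = 0.00757). Cps1, which makes carbamoyl phosphate, was at 1280, 1930 and 2480 CPM against 1440, 2470 and 3740 CPM and did not pass (0.36 ± 0.15, adjusted p = 0.0655); without Epac2 KD library 5 it did (0.43, adjusted p = 0.0274).

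Of 24 amino acid transporter genes, 6 were called, all higher in Epac2 KD (25%, again near the 20.8% of all tested genes). The cationic amino acid carrier Slc7a2 was at 0.74 ± 0.18, the glutamine transporter Slc38a3 at 0.71 ± 0.11, the mitochondrial glutamate carrier Slc25a22 at 0.67 ± 0.11 and Slc38a4 at 0.51 ± 0.090. Slc38a3 stood at 817, 998 and 1280 CPM in Gcgr KD and 1220, 1650 and 1940 CPM in Epac2 KD (adjusted p = 3.88e-06), with slight overlap.

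Of 21 gluconeogenesis genes tested, 7 were higher and 1 was lower in Epac2 KD (38.1% called, against 20.8% of all tested genes), with a median of 0.16. Pck1, the enzyme that forms phosphoenolpyruvate, stood at 500, 676 and 1200 CPM in Gcgr KD, 653, 1210 and 2280 CPM in Epac2 KD and 714, 1230 and 1870 CPM in Control (0.80 ± 0.19, adjusted p = 0.00195), with overlapping groups. Fbp1, fructose-1,6-bisphosphatase, was at 457, 746 and 945 CPM against 923, 1210 and 1330 CPM (0.71 ± 0.12, adjusted p = 1.71e-05), with slight overlap. G6pc, which frees glucose from its phosphate for export, did not pass, at 106, 176 and 274 CPM against 135, 226 and 495 CPM (0.57 ± 0.24, adjusted p = 0.0817); without Epac2 KD library 7 it did (0.65, adjusted p = 0.0462). Ppargc1a, a coactivator of these genes, was at 0.02 ± 0.14 (adjusted p = 0.93). The exception was Mdh1, the cytosolic malate dehydrogenase, at 301, 358 and 398 CPM in Gcgr KD and 179, 218 and 245 CPM in Epac2 KD, with no overlap (-0.71 ± 0.060, adjusted p = 5.27e-13). Against Control (363, 418 and 463 CPM), Mdh1 was lower in both groups, by -0.23 (adjusted p = 0.00937) with Gcgr KD and -0.95 (adjusted p = 5.84e-17) with Epac2 KD.

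A search of the same RefSeq promoter windows for the palindromic cAMP response element TGACGTCA found it in 0 of the 31 amino acid catabolism genes called higher that had an entry and in 1 of the 7 gluconeogenesis genes called higher, beside 2.03% of all promoters in the table and 3.4% of those of tested genes. A window without a match lacks these letters, and nothing more follows from it.

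Fat oxidation had a similar tilt. Of 36 tested genes of fatty acid oxidation and ketogenesis, 21 were higher and 1 was lower in Epac2 KD (61.1% called, against 20.8% of all tested genes). The list median was 0.29, and the medians against Control were -0.27 with Gcgr KD and -0.02 with Epac2 KD. Cpt2, which hands long-chain fatty acids to the mitochondrial matrix, changed by 0.65 ± 0.057 (adjusted p = 1.57e-12). Among genes of the peroxisomal branch, Ehhadh was at 141, 201 and 278 CPM in Gcgr KD and 103, 352 and 455 CPM in Epac2 KD (0.67 ± 0.16, adjusted p = 0.0022), and Acaa1b at 460, 1090 and 1320 CPM against 413, 1940 and 2600 CPM (0.82 ± 0.23, adjusted p = 0.00632). The lowest Epac2 KD values lay below the lowest Gcgr KD values for both genes. The mean of the list was -1.05 in Epac2 KD library 7 and between -0.43 and 0.28 in the other Epac2 KD libraries, and without library 7 the list had 24 members called higher. Hadhb, a subunit of the mitochondrial trifunctional protein, was the exception, at 111, 118 and 134 CPM against 68.6, 104 and 118 CPM (-0.31 ± 0.082, adjusted p = 0.00459). Its change from Control was -0.46 (adjusted p = 0.00012) with Epac2 KD and -0.15 (adjusted p = 0.287) with Gcgr KD.

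Of 30 genes of glycolysis and lipogenesis, 5 were higher and 1 lower in Epac2 KD (20% called), and of 27 cholesterol synthesis genes 6 were higher and 0 lower (22.2%), shares near the 20.8% called over all tested genes. The list medians were 0.24 and 0.18, in that order, with 26 of 30 and 23 of 27 members above 0. Of 19 lipid droplet genes, 6 were higher and 1 lower (36.8%), with a median of 0.13. Elovl3, a fatty acid elongase, was at 10.4, 35.8 and 140 CPM in Gcgr KD, 74.7, 227 and 468 CPM in Epac2 KD and 32.9, 162 and 281 CPM in Control, with wide and overlapping ranges (2.04 ± 0.43, adjusted p = 0.000422). Cidea, a lipid droplet protein, was at 0.243, 6.05 and 14.7 CPM against 2.02, 16.1 and 72.0 CPM (2.09 ± 0.59, adjusted p = 0.0083). Fitm1, which helps lipid droplets bud, changed by 0.70 ± 0.11, the triglyceride-forming Dgat1 by 0.51 ± 0.085 and the sterol reductase Tm7sf2 by 0.75 ± 0.16. Slc2a2, the hepatocyte glucose transporter, was the lipogenesis list's member lower in Epac2 KD, at 146, 216 and 246 CPM against 104, 151 and 222 CPM (-0.42 ± 0.11, adjusted p = 0.00244).

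Among apolipoprotein genes, more were called lower than higher, though the list as a whole did not lean lower. Of 20 genes of lipoprotein assembly and uptake, 6 were lower and 2 higher in Epac2 KD (40% called, against 20.8% of all tested genes). The list median was 0.03, with 11 members above 0 and 9 below. Apoa4, an apolipoprotein of triglyceride-rich particles, stood at 1240, 3810 and 5620 CPM in Gcgr KD, 308, 685 and 1810 CPM in Epac2 KD and 976, 1930 and 5300 CPM in Control (-2.16 ± 0.45, adjusted p = 0.000396). The knockdown groups overlapped between 1240 and 1810 CPM. Apoc2, the cofactor of lipoprotein lipase, was at -0.80 ± 0.20, Apoa1, the main protein of HDL, at -0.59 ± 0.12, and Scarb1, the HDL receptor, at -0.44 ± 0.11, all called.

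**Figure D4:**
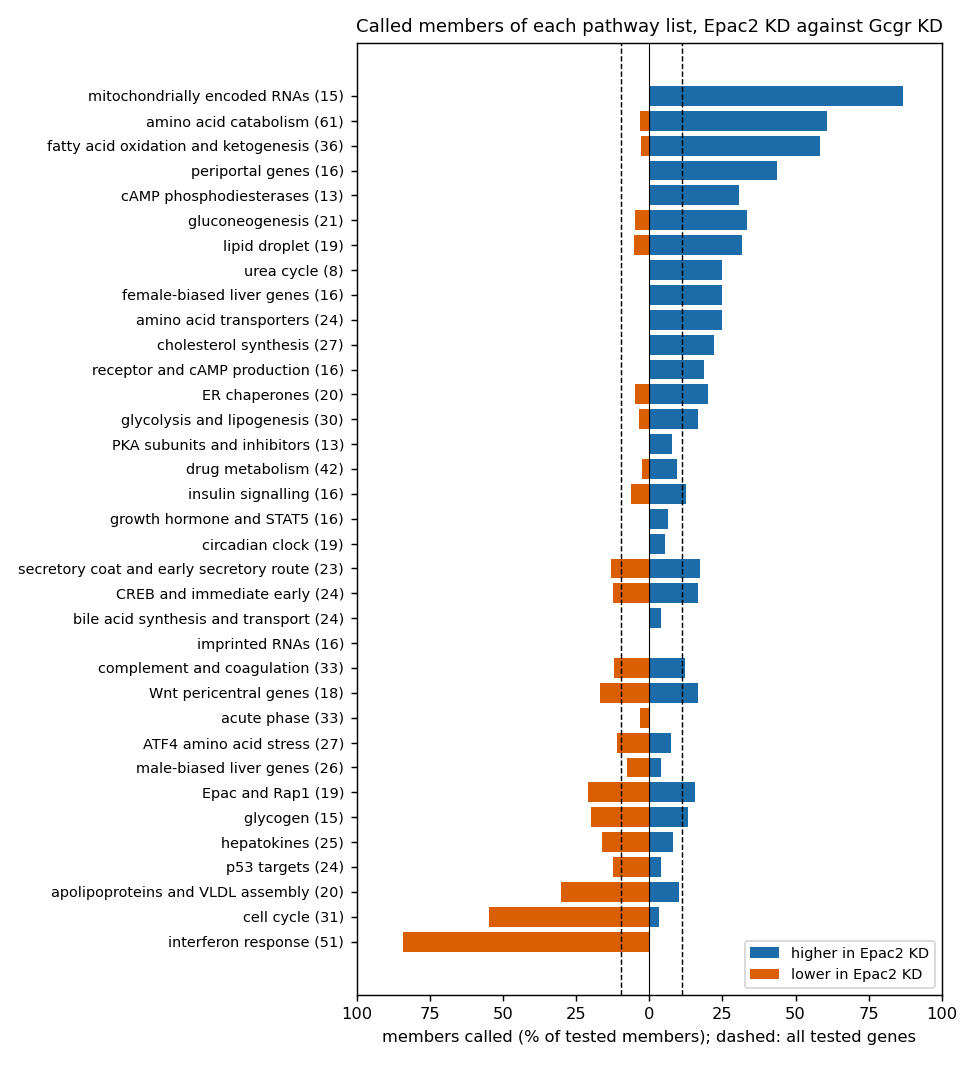
Share of the tested members of each pathway list called higher (blue, to the right) or lower (orange, to the left) in Epac2 KD than in Gcgr KD, with the number of tested members in parentheses. Dashed lines mark the shares over all tested genes, 11.1% higher and 9.72% lower; the interferon and cell cycle lists reach furthest to the left, and the mitochondrially encoded, amino acid and fatty acid oxidation lists furthest to the right.

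Many cell cycle genes were lower in Epac2 KD. Of 31 tested, 17 were lower and 1 higher (58.1% called, against 20.8% of all tested genes), with a median of -0.72. Against Control the medians were 0.38 with Gcgr KD and -0.34 with Epac2 KD. Few members passed there (0 higher and 1 lower with Gcgr KD, 0 and 1 with Epac2 KD). Over all tested genes, 7.23% passed in either direction with Gcgr KD and 4.56% with Epac2 KD. Levels were low. Cdc20, the activator of the anaphase-promoting complex, was at 1.41, 3.62 and 5.46 CPM in Gcgr KD, 0.685, 0.958 and 2.12 CPM in Epac2 KD and 1.03, 1.66 and 3.69 CPM in Control (-1.68 ± 0.35, adjusted p = 0.000387). Ccnb1, a cyclin of mitosis, was at 0.498, 0.970 and 2.12 CPM against 0.0512, 0.266 and 0.990 CPM (-1.70 ± 0.41, adjusted p = 0.00188), and the proliferation marker Mki67 was at -1.10 ± 0.34. The groups overlapped for both Cdc20 and Ccnb1. Tk1, the thymidine kinase of S phase, was the member higher in Epac2 KD (0.62 ± 0.17, adjusted p = 0.00501). Gcgr KD libraries 3 and 5, the highest for interferon genes, had the lowest cell cycle means of their group, and without them 19 members were lower.

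Some stellate cell and fibroblast markers were also lower. Of 15, 5 were lower in Epac2 KD (9.72% of all tested genes were) and 0 higher, with a list median of -0.26, and the summed level of the list was 481 to 929 CPM in Gcgr KD, 472 to 722 CPM in Epac2 KD and 459 to 735 CPM in Control; none was at 0 throughout a group. The 5 were matrix genes: Col1a1, at 20.6, 42.7 and 85.5 CPM against 9.45, 14.5 and 33.0 CPM (-1.36 ± 0.35, adjusted p = 0.00332), Col1a2 at -0.92, Col3a1 at -0.86, Lum at -0.79 and the protease inhibitor Timp1 at -1.35. Timp1 no longer passed with the 2 groups fitted alone (adjusted p = 0.0604), without Epac2 KD library 5 (-1.29, adjusted p = 0.0531) or library 2 (-1.28, adjusted p = 0.0556). Lrat and Reln, which mark quiescent stellate cells, were at -0.25 and -0.17 and were not called. The part of these cells in the cell cycle difference was not tested.

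RNAs encoded by the mitochondrial genome were higher in Epac2 KD, 13 of 15 called (86.7%, against 20.8% of all tested genes), with a median of 0.60. The share of a library's counts from them was 7.0% to 11.8% (median 10.1%) in Gcgr KD, 9.9% to 24.9% (median 12.35%) in Epac2 KD and 8.7% to 15.0% (median 12%) in Control; 24.9% belonged to Epac2 KD library 5, and the next was 16.9%. Cytochrome b (CYTB) stood at 6370, 9760 and 12000 CPM in Gcgr KD and 9810, 14200 and 38400 CPM in Epac2 KD (0.87 ± 0.18, adjusted p = 0.000249), with overlap. Without library 5, 11 of the RNAs were called.

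The G protein, the PKA subunits and Epac1 were measured next. Gnas was at 0.04 ± 0.10 (adjusted p = 0.809), the PKA catalytic subunits Prkaca at -0.05 ± 0.12 (adjusted p = 0.817) and Prkacb at 0.16 ± 0.081 (adjusted p = 0.167), the regulatory subunit Prkar1a at 0.07 ± 0.037 (adjusted p = 0.162), and Epac1's gene Rapgef3 at 0.16 ± 0.17 (adjusted p = 0.551). None of these passed. Of 16 genes listed under receptor and cAMP production, 3 were higher and 0 lower (18.8% called, against 20.8% of all tested genes). They were Gcgr, itself the target of the Gcgr KD hairpin, Gnaq and the adrenergic receptor Adra1b. Gnaq, which couples receptors to phospholipase C, was at 0.32 ± 0.057 (adjusted p = 2.85e-05). Adra1b was at 0.25 ± 0.090 (adjusted p = 0.0419), and its call was lost under 6 of the 13 alternatives (adjusted p up to 0.0979). These were without Epac2 KD library 5 or library 2 (0.21 and 0.22), with no filter, with the replicate block (adjusted p = 0.0589), with limma-voom and with mitochondrially encoded genes removed. Of 13 genes of PKA subunits and inhibitors, 1 was called (7.69%). It was Prkar2a (0.19 ± 0.062, adjusted p = 0.0225), which did not pass without Epac2 KD library 2 (0.16, adjusted p = 0.0613).

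Of 19 Epac and Rap1 genes, 3 were higher and 4 lower in Epac2 KD (36.8% called, against 20.8% of all tested genes). The lower ones include Rapgef4, itself the target of the hairpin. Some of the other called members did not pass under alternatives such as limma-voom (adjusted p = 0.0521 to 0.0556). Rap2b, a Rap GTPase, was at 2.43, 3.63 and 4.38 CPM in Gcgr KD and 1.73, 2.43 and 3.11 CPM in Epac2 KD (-0.57 ± 0.18, adjusted p = 0.0167), and Rassf5, a Rap1 effector, at 8.04, 10.8 and 12.5 CPM against 11.1, 12.8 and 14.7 CPM (0.29 ± 0.083, adjusted p = 0.00902). Both pairs of ranges overlapped.

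The phosphodiesterases, which degrade cyclic AMP, had 4 of 13 members called (30.8%, against 20.8% of all tested genes), all higher in Epac2 KD. Pde4b stood at 6.20, 11.6 and 16.8 CPM in Gcgr KD, 13.1, 22.5 and 31.4 CPM in Epac2 KD and 12.9, 19 and 32.3 CPM in Control (1.03 ± 0.17, adjusted p = 8.24e-06). Pde4c was at 6.99, 9.93 and 13.6 CPM against 12.7, 16.2 and 21.3 CPM (0.72 ± 0.12, adjusted p = 4.64e-06), and Pde7b and Pde8a changed by 0.41 and 0.31. The knockdown groups overlapped for all 4. Against Control, Pde4b changed by -0.85 (adjusted p = 0.000612) with Gcgr KD and 0.18 (adjusted p = 0.659) with Epac2 KD.

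Of 24 genes of CREB and its immediate early targets, 4 were higher and 3 lower in Epac2 KD (29.2% called, against 20.8% of all tested genes). The list median was -0.03. Some of the 4 higher members did not pass with the 2 groups fitted alone (adjusted p = 0.0576 and 0.0874). Fosb, an AP-1 subunit, was at 0.525, 1.24 and 2.06 CPM in Gcgr KD against 0.173, 0.288 and 0.759 CPM in Epac2 KD (-1.78 ± 0.27, adjusted p = 2.17e-06). Junb, its partner, had the opposite sign, at 9.88, 16.3 and 21.9 CPM against 13.1, 26 and 84.9 CPM (1.05 ± 0.31, adjusted p = 0.0125), and did not pass without Epac2 KD library 7 (0.79, adjusted p = 0.0549). Crtc2, a coactivator of CREB, was at 0.29 ± 0.071. The stress factor Atf3, counted in the list of amino acid stress genes, was at 3.35, 5.58 and 9.13 CPM against 0.876, 2.11 and 3.39 CPM (-1.51 ± 0.27, adjusted p = 4.16e-05), with ranges that just met.

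Some of the largest differences fell outside the metabolic lists and stayed at the Control level in one of the knockdown groups. Ergic1, a membrane protein of the compartment between endoplasmic reticulum and Golgi, stood at 32.4, 38.3 and 51.4 CPM in Gcgr KD, 98.4, 110 and 117 CPM in Epac2 KD and 89.4, 98.2 and 105 CPM in Control. The Gcgr KD libraries were far below all others (1.46 ± 0.058, adjusted p = 8.81e-26). Sec23b, a subunit of the COPII vesicle coat, had the same order, at 11.7, 16.6 and 20.5 CPM, 33.5, 50.1 and 61.9 CPM, and 37.8, 49.5 and 57.0 CPM (1.56 ± 0.11, adjusted p = 5.26e-16). So did Rabac1, a Rab acceptor of the Golgi, at 7.85, 11.3 and 13.6 CPM, 23.2, 28.5 and 41.3 CPM, and 19, 24.9 and 31.3 CPM (1.45 ± 0.12, adjusted p = 2.02e-13). In the list of the early secretory route that holds Ergic1 and Sec23b, 4 of 23 genes were higher and 3 lower. That is 30.4% called, against 20.8% of all tested genes, and the list median was 0.05. A member of the lower side did not pass with the 2 groups fitted alone (-0.31, adjusted p = 0.0658).

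The reverse pattern, with the Epac2 KD libraries apart from the other two groups, was seen for Mia3, an endoplasmic reticulum exit site protein for bulky cargo, at 207, 259 and 300 CPM in Gcgr KD and 103, 135 and 159 CPM in Epac2 KD (-0.96 ± 0.084, adjusted p = 1.23e-12). Lman1, a cargo receptor of the same route, was at 181, 202 and 234 CPM against 101, 127 and 160 CPM (-0.69 ± 0.076, adjusted p = 1.11e-09). Ddah1, which breaks down methylated arginine, was at 117, 171 and 191 CPM against 20.4, 58.4 and 74.3 CPM (-1.57 ± 0.13, adjusted p = 5.58e-13), and Cept1, which completes phosphatidylcholine synthesis, at 25.4, 31.0 and 33.4 CPM against 9.17, 11.5 and 14.7 CPM (-1.39 ± 0.095, adjusted p = 2.34e-16). Neither knockdown group overlapped the other for these 4 genes, and each was within 0.05 of Control on the log2 scale with Gcgr KD. Ddah1 and Cept1 were chosen after their values were seen. Which of these differences follow from the targeted gene was not tested.

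Among the other large falls, Smpd3, a neutral sphingomyelinase, stood at 9.30, 21.5 and 30.1 CPM in Gcgr KD, 1.43, 4.50 and 8.96 CPM in Epac2 KD and 2.40, 4.49 and 9.53 CPM in Control (-2.08 ± 0.30, adjusted p = 8.43e-07). The Gcgr KD libraries lay above all but the highest Control library. Sprr1a, a cornified envelope protein also induced by stress, was at 0.816, 5.10 and 19.4 CPM against 0, 0.324 and 3.75 CPM (-3.01 ± 0.83, adjusted p = 0.00675). Mas1, the receptor of angiotensin-(1-7), was at 0.981, 3.90 and 5.54 CPM against 0.0867, 0.926 and 1.94 CPM (-1.81 ± 0.32, adjusted p = 3.06e-05), and Cib3, a calcium-binding protein, at 2.49, 6.24 and 18.4 CPM against 0.389, 3.07 and 4.46 CPM (-1.75 ± 0.49, adjusted p = 0.0075). These last 3 genes overlapped between the groups.

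Among the other large rises, the long noncoding RNA Snhg11 was at 5.94, 11.9 and 20.3 CPM in Gcgr KD, 19.4, 34.1 and 71.7 CPM in Epac2 KD and 11.6, 13.8 and 22.2 CPM in Control (1.55 ± 0.20, adjusted p = 1.05e-07). Hamp2, a relative of hepcidin whose reads could be shared with Hamp, was at 12.4, 38.5 and 62.2 CPM against 5.69, 112 and 296 CPM (1.67 ± 0.42, adjusted p = 0.00288), the lowest being Epac2 KD library 7. Cyp17a1, a steroid hydroxylase, was at 2.08, 9.0 and 30.6 CPM against 8.70, 54.0 and 88.6 CPM (1.87 ± 0.47, adjusted p = 0.00322). Members of gene families with near-identical copies were also among these rises and are less certain: the major urinary protein Mup9 (3.06 ± 0.79, adjusted p = 0.00411), the sulfotransferase Sult2a7 (2.0 ± 0.38, adjusted p = 9.76e-05; adjusted p = 0.0666 with limma-voom) and the glucuronosyltransferase Ugt1a9 (1.86 ± 0.34, adjusted p = 7.15e-05), which shares exons with its neighbours.

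**Figure D5:**
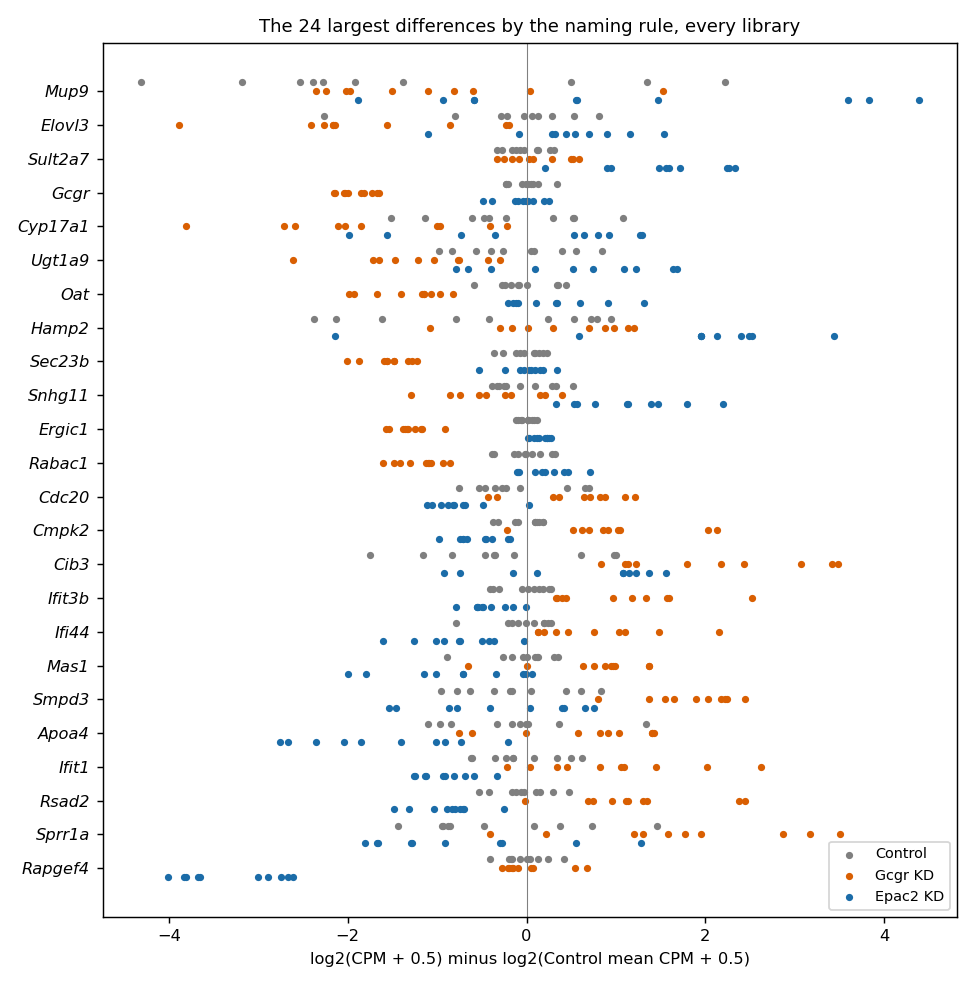
log2(CPM + 0.5) of the 12 largest rises and 12 largest falls chosen by the naming rule, in each library of the 3 groups, relative to the log2 of the Control mean CPM + 0.5. Gcgr, Ergic1, Sec23b and Rabac1 are low in Gcgr KD, Rapgef4 is low in Epac2 KD, and the interferon genes Rsad2, Ifit1, Ifi44, Ifit3b and Cmpk2 are high in Gcgr KD.

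Several of the rises, Cyp17a1, Hamp2 and Elovl3 among them, belong to genes whose liver level differs between the sexes. Of 16 tested female-biased genes 4 were higher in Epac2 KD and 0 lower (25% called higher, against 11.1% of all tested genes). The list median was 0.70, with 14 members above 0 and 2 below. Its mean level ran from -1.71 to 0.73 in Gcgr KD libraries and from -2.08 to 1.71 in Epac2 KD libraries. Of 26 male-biased genes 1 was higher (Elovl3) and 2 were lower (11.5% called). A female-biased member called at adjusted p = 0.0497 did not pass under some alternatives, such as limma-voom (adjusted p = 0.157). The male-biased Mup20 was at 6090, 9590 and 17400 CPM in Gcgr KD, 1310, 2850 and 8810 CPM in Epac2 KD and 2280, 4120 and 8100 CPM in Control (-1.50 ± 0.28, adjusted p = 6.28e-05), and Cyp4a12a, a male-biased fatty acid hydroxylase, was at -0.99 ± 0.24. The mean level of the male-biased list varied widely within every group, from -1.16 to 1.92 in Gcgr KD and from -1.13 to 1.93 in Epac2 KD. Reads of Mup20 and Cyp4a12a may be shared with near copies.

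Liver zonation lists gave a mixed picture, with 43.8% of periportal and 33.3% of Wnt-dependent pericentral genes called, against 20.8% of all tested genes. Of 16 periportal genes 7 were higher in Epac2 KD and 0 lower; 6 of those 7 (Arg1, Ass1, Hal, Pck1, Sds and Gls2) also belong to the nitrogen or glucose lists above, so this count is not separate evidence. Of 18 genes of the Wnt-dependent pericentral zone, 3 were higher and 3 lower: Lhpp, a histidine phosphatase, at 18.9, 28.7 and 36.7 CPM against 49.1, 59.2 and 121 CPM (1.27 ± 0.14, adjusted p = 1.77e-09, no overlap), Oat and Rgn (0.29) on one side, and Lect2 (-0.48), Axin2 (-0.37) and Glul (-0.33) on the other. Glul, the glutamine synthetase of that zone, passed narrowly (adjusted p = 0.046) and did not pass without Epac2 KD library 5 (-0.34, adjusted p = 0.0551) or without Gcgr KD libraries 3 and 5 (-0.25, adjusted p = 0.167). With the 2 groups fitted alone, Glul was at adjusted p = 0.166 and Rgn at 0.0924, and with no filter at 0.0526 and 0.0556. Rgn did not pass without Epac2 KD library 2 either (0.25, adjusted p = 0.082).

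Among secreted liver proteins, 4 of 25 were lower and 2 higher in Epac2 KD (24% called, near the 20.8% of all tested genes). Inhbe, an activin subunit, was at 84.9, 98.9 and 130 CPM in Gcgr KD and 39.8, 71.5 and 90.6 CPM in Epac2 KD (-0.57 ± 0.12, adjusted p = 0.000569), and Ahsg, fetuin-A, changed by -0.55 ± 0.13. Fgf21, a fasting hormone, did not pass, at 3.49, 5.46 and 14.6 CPM against 0.876, 3.84 and 8.24 CPM (-0.79 ± 0.38, adjusted p = 0.139). Of 33 acute phase genes 1 was called, the metalloreductase Steap4 (-0.43 ± 0.13, adjusted p = 0.0139; adjusted p = 0.0651 with the 2 groups fitted alone), and none of 16 imprinted RNAs was called. Of 24 p53 targets 1 was higher and 3 lower (16.7%), with Trp53inp1 at -1.04 ± 0.19. Other called p53 targets did not pass with limma-voom (adjusted p = 0.052 to 0.0853). Of 20 chaperone genes of the endoplasmic reticulum 4 were higher and 1 lower (25%), with Dnajb11 at 0.67 ± 0.12 and the ubiquitin ligase Syvn1 at 0.73 ± 0.19.

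The labelled tissue matched its markers: 14 of 14 hepatocyte markers were tested, with a summed level of 93700 to 127000 CPM in Gcgr KD and 99800 to 155000 CPM in Epac2 KD. Of these, 3 were higher and 2 lower in Epac2 KD (35.7% called, against 20.8% of all tested genes), with a list median of 0.22. A lower member, at -0.23, did not pass with limma-voom (adjusted p = 0.0532). Among other cell types, 0 of 15 endothelial and 0 of 6 tested erythroid markers were called. Single markers were called in 4 other lists: Sox9 (0.58) and Muc1 (-0.92) of cholangiocytes, Cd79a (0.65) of B cells, Ly6c2 (-0.72) of monocytes and Car3 (0.76), an adipocyte marker that hepatocytes also express. Of these, Sox9 did not pass without Epac2 KD library 2 (0.48, adjusted p = 0.0592), nor Muc1 (-0.88, adjusted p = 0.0733) and Ly6c2 (-0.66, adjusted p = 0.0652). Muc1 and Ly6c2 were also lost without library 5 (-0.92, adjusted p = 0.0609 and -0.66, adjusted p = 0.0639), Ly6c2 without library 7 (-0.69, adjusted p = 0.0511), and Ly6c2 and Cd79a without Gcgr KD libraries 3 and 5 (-0.62, adjusted p = 0.0834 and 0.56, adjusted p = 0.0585). With the 2 groups fitted alone, Muc1 was at adjusted p = 0.0525 and Ly6c2 at 0.0683, with the replicate block Muc1 was at 0.0556, and with limma-voom Ly6c2 was at 0.0843.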

How the data were processed

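Liver RNA of 50 samples of experiment 1 was analysed. Per the labels' protocols, mRNA was bead-purified and made into strand-specific libraries, and per the submitters' processing notes the tools were bcl2fastq 2.17 and FastQC, with GRCm38 (mm10) as build. The authors deposited expected counts, a column per sample over Entrez genes. The sources used here give neither aligner nor counting program, nor how reads common to several genes were assigned. Of 24475 genes, 24375 matched a symbol and 5184 were 0 in every library after rounding; 8.69% of values had a fractional part and were rounded. 0 columns were left unused.

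Differences were tested with edgeR 4.0.16 in R 4.3.3 (filterByExpr, TMM, robust quasi-likelihood fit over all 5 groups, 45 residual degrees of freedom, common dispersion 0.0471), with Benjamini-Hochberg adjustment over 13574 genes. Libraries of the 3 groups differed by more than sampling noise (lowest chi-squared per degree of freedom 14.85). On simulated counts (13492 genes), the fit found 69.7% of genes set to a 1.5-fold difference, 89.6% of those at 2-fold and 94% of those at 4-fold, and 6.1% of its calls were false.

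The 47 gene lists (35 pathway, 12 cell type marker), the members and the tests were chosen with earlier results of these data known. Named are the receptor pathway; 13 glucagon-linked genes; among called genes, the 12 that rose most and the 12 that fell most, given an average log2 CPM of 1 or more, a symbol that is no clone or model name, and 9 or more of 10 libraries of either group beyond the median of the other; and for each list, a selection from the 4 called members that changed most in either direction. Further members are named from the lists, after their values were seen, as examples (such as Irf7 and Cpt2) or as members not called. Alternatives were RLE scaling, other filters, the compared groups alone, a replicate block, limma-voom 3.58.1, DESeq2 1.42.0, and, added after the data were seen, libraries left out, a covariate for male-biased genes, and removal of mitochondrially encoded genes.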

Additional observations from a re-analysis of the deposited data

Results flagged for a closer look

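The 123 genes named in the report were examined for outlying libraries. So were the means of the interferon, amino acid catabolism, fatty acid oxidation, cell cycle and mitochondrially encoded lists. By Dixon's test at the 95% level, 12 values stood apart from the other 9 libraries of their group. Each gene and list was examined in 2 groups, and chance alone marks about 1 in 20 of these. A count of 12 is therefore near what chance alone would give if the values were independent. They were not spread evenly, since most fell in Epac2 KD libraries 7 and 2. The count thus cannot decide whether those libraries stand apart.

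In Epac2 KD library 7, Hamp2 was at 5.69 CPM (next lowest 40.4), Ddah1 at 20.4 CPM (next lowest 44.4), Car3 at 1270 CPM (next lowest 4450), Steap4 at 235 CPM (next highest 131), and the mean of the fatty acid oxidation list at -1.05 (next lowest -0.43). This library also had the highest acute phase mean, 1.79, a list that was not examined by Dixon's test. In Epac2 KD library 2, Tat was at 2320 CPM (next highest 1080), Gls2 at 512 CPM (next highest 317) and Glul at 459 CPM (next lowest 1330). In Epac2 KD library 5, which had the highest mitochondrial share, Gnas was at 448 CPM (next highest 382). In Epac2 KD library 9 the cell cycle mean was 0.14 (next highest -0.24). In Gcgr KD library 5, Dnajb11 was at 111 CPM (next highest 89.6), and in Gcgr KD library 4, Ivd was at 61.8 CPM (next lowest 85).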

How the results depend on the processing

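The counts of called genes stayed within 1.5 times the reported 1501 higher and 1319 lower under all 13 alternatives, from 1259 (no filter) to 1667 (covariate for male-biased genes) higher and from 1145 (without Epac2 KD library 5) to 1505 (the same covariate) lower; DESeq2 gave 1613 and 1402, limma-voom 1434 and 1305, and removal of mitochondrially encoded genes before scaling 1393 and 1391. Members called ranged from 38 to 43 for the interferon list (lower), from 31 to 40 for amino acid catabolism (higher), from 17 to 24 for fatty acid oxidation (higher), from 16 to 19 for the cell cycle (lower) and from 11 to 14 for mitochondrially encoded RNAs (higher). Of the 123 named genes, 0 changed direction, 15 lost their call under at least 1 alternative and 2 (Cps1, G6pc) gained one. List members described without a name are not among the 123, and several of them also lost their call under some alternatives. Of the 10 libraries in each group, only Epac2 KD libraries 2, 5 and 7 and the pair of Gcgr KD libraries 3 and 5 were left out.

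With the replicate number as a block, 1543 genes were higher and 1359 lower. Same-numbered libraries of the 2 groups had correlations of -0.178 to 0.568 in their deviations from the group means, and 2 of 10 Epac2 KD libraries correlated best with their own number, so the numbers were not taken as pairs.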
